A study of Mus musculus with 46 samples.

Results

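The 10 genes described here are markers used to tell resident from monocyte-derived macrophages. They were chosen by name from the 53465 genes of a single FPKM table, and all 10 had a row. Timd4, Lyve1, Folr2, Mrc1 and Cd163 mark tissue-resident macrophages, Ly6c2, Chil3 and Plac8 mark monocytes and their recent descendants, and Adgre1 and Csf1r are shared by both. FPKM divides sequenced fragments by transcript length and by the total of mapped fragments, so levels of different genes can be set against each other. Each value is a share of its sample's total, so a level also depends on what else the sample holds, and mitochondrial genes took 20.2 to 75.6% of the FPKM of a sample.

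RNA was sequenced from 4 cell populations sorted from the kidneys of wild-type male C57BL/6 mice that were 8 to 12 weeks old at surgery. Mice underwent sham surgery, unilateral ureteric obstruction (UUO), in which urine can no longer drain from the kidney, or reversible UUO (rUUO), in which the ureter was reimplanted to relieve the obstruction and the mice were culled 14 days later. The labels of the UUO samples give no day of cull, and the methods name day 2 and day 7. Macrophages were sorted on high F4/80 staining, proximal tubular (PT) cells on the lectin LTL, endothelial cells on CD31 and stromal cells on PDGFRβ. Macrophages comprised 4 sham, 4 UUO and 3 rUUO samples, PT cells 3, 4 and 3, endothelial cells 4, 3 and 4, and stromal cells 4 of each. No transgene or drug is named for any group. The gate limits the model, since Adgre1 encodes F4/80 and its level between populations was set by the sort, since blood monocytes and their recent descendants carry less F4/80 than mature macrophages, and since UUO samples of both days of cull may stand in the same group.

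Kidney macrophages derive in part from cells seeded before birth that renew locally, and in part from blood monocytes that enter through the chemokine CCL2 and its receptor CCR2. Both depend on signalling through the CSF1 receptor, which has the ligands CSF1 and IL-34. After ureteric obstruction monocytes enter the kidney, lose LY6C as they mature and take on scavenger receptors that resident cells also carry, so that a single marker rarely separates the 2 origins. In bulk samples a smaller share of cells that express a gene and less RNA per cell cannot be told apart.

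The macrophage samples carried the markers of their label. The summed level of 8 general macrophage markers, Lyz2, Tyrobp and Cd68 among them, ranged from 9208 to 19174 FPKM in the 11 macrophage samples and did not exceed 149.8 FPKM in any other sample. Summed FPKM per macrophage sample ranged from 706474 to 789276, and 11973 to 13481 genes reached 1 FPKM. The table holds no counts, so absolute depth is unknown, and relative depth estimated from the steps between low values was 0.734 to 1.09 with 1 as the median of all 44 samples. UUO replicate 2 stood apart, with 37.8% of its FPKM in mitochondrial genes against 20.4 to 28.01% in the other macrophage samples. Its C1qa, a complement gene of resident macrophages, was 176.3 FPKM where no other macrophage sample had under 1315 FPKM. The partner genes did not drop alike. Its C1qb was 2514 FPKM, beside 2509 FPKM in rUUO replicate 6, and its C1qc was 1199 FPKM, beside 1346.5 FPKM there.

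The sequence upstream of the start site is shown for Mrc1 and Plac8, the 2 members that passed the test after UUO, and for Ly6c2 with its neighbour Ly6c1, a near-identical gene of other cell types. Each run is the 250 bases before the outermost RefSeq start on GRCm38.p6, written 5′ to 3′ on the strand of the gene. Capitals mark GAGGAA or its reverse complement TTCCTC, the core letters bound by PU.1, the factor that directs macrophage genes. Of 32851 start sites in the same RefSeq table, 23.3% held these letters within 250 bases on either strand, so a match is a description and not a site.
Mrc1, chr2:14229164-14229413, plus strand: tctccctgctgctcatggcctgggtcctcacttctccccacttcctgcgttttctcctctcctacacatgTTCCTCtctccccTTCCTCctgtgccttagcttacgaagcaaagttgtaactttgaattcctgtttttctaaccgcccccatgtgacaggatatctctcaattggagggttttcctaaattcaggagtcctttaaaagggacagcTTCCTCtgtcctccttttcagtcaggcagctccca
Plac8, chr5:100572206-100572455, minus strand: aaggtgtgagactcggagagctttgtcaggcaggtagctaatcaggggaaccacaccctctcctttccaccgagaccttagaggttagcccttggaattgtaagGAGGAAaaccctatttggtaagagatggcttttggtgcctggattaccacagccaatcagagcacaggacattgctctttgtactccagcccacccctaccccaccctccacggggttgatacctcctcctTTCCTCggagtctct
Ly6c2, chr15:75111972-75112221, minus strand: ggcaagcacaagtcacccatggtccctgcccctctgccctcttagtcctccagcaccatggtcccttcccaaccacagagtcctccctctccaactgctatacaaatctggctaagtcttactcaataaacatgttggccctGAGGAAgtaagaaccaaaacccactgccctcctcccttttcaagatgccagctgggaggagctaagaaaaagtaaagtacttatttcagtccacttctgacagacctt
Ly6c1, chr15:75048838-75049087, minus strand: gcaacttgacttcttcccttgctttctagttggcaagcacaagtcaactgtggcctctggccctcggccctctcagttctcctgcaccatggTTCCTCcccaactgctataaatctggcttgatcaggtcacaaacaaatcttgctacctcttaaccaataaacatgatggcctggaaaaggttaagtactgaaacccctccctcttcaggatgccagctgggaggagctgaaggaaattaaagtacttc
The Mrc1 run held the letters 3 times, the Plac8 run 2 times, and the Ly6c2 and Ly6c1 runs once each, at different places. The runs listed for Chil3, Cd163, Folr2 and Timd4 held none, and 7 of the 10 members were matched and searched.

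Ly6c2 and Ly6c1 share stretches of transcript sequence. Of the windows of 50 bases along the 822 bases of the Ly6c2 reference transcript, 32.6% occurred letter for letter in a Ly6c1 transcript, and of windows of 150 bases 5.79% did. For Chil3 against its copy Chil4 the shares were 18.5% and 0%, and for Folr2 against Folr1 no window was shared. Ly6c2 values of a few FPKM beside abundant Ly6c1 are therefore uncertain. How many reads of Ly6c1 were counted for Ly6c2 was not tested.

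Mrc1, the mannose receptor CD206 of resident and alternatively activated macrophages (chr2:14229392-14332057 on GRCm38), rose with obstruction. It had 152, 143, 186 and 151 FPKM in sham macrophages, 270.3, 275, 235 and 273 FPKM in UUO and 245, 242 and 233 FPKM in rUUO. Every UUO and rUUO sample lay above every sham sample, and UUO and rUUO overlapped. The group means were 158 ± 19.1 FPKM (SD, n = 4), 263 ± 18.9 FPKM (SD, n = 4) and 240.1 ± 6.04 FPKM (SD, n = 3). On the log2(FPKM + 1) scale the difference from sham was 0.74 (SE 0.14, limma adjusted p = 0.00933) in UUO and 0.61 (SE 0.15, limma adjusted p = 0.0436) in rUUO. The UUO call was lost under quantile normalization (adjusted p = 0.0507) and without the intensity trend (0.0572). The rUUO call held under 8 of 21 alternatives and was lost, among others, without any 1 of the rUUO samples (adjusted p of 0.13 to 0.15) and with mitochondrial genes left out of the scaling (0.0902).

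Plac8, a small cysteine-rich protein of monocytes and other myeloid cells (chr5:100553725-100572245), rose too. It had 1.14, 1.07, 3.14 and 5.31 FPKM in sham, 14.95, 7.93, 14.5 and 19.5 FPKM in UUO and 9.28, 11.3 and 5.69 FPKM in rUUO macrophages. All obstructed and all reversed samples exceeded all sham samples, with rUUO sample 6, at 5.69 FPKM, close to sham sample 4. The log2 difference of UUO from sham was 2.15 (SE 0.39, limma adjusted p = 0.00692). The difference of rUUO from sham was 1.53 (SE 0.43, limma adjusted p = 0.0689).

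The other monocyte markers had the same sign after UUO without passing the test. Ly6c2, which encodes the LY6C antigen of classical monocytes (chr15:75108158-75111970), had 0.6, 0.46, 0.59 and 0.85 FPKM in sham macrophages. In UUO it had 6.35, 0.74, 11.7 and 7.0 FPKM, and in rUUO 6.29, 1.45 and 2.61 FPKM. Apart from UUO replicate 2, the library with the high mitochondrial share, every UUO and rUUO sample lay above sham. The log2 difference of UUO from sham was 1.89 (SE 0.54, limma adjusted p = 0.0592), and without UUO replicate 2 it was 2.49 (adjusted p = 0.00289). Ly6c2 passed under 4 of 21 alternatives, which were this one, quantile normalization, all populations in the fit and sample weights. The part of the library's state and of the F4/80 gate in these levels was not tested.

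Ly6c2 stood at 3.68 to 16.4% of the Ly6c1 level in sham macrophages, at 6.3 to 57.8% in UUO and at 8.36 to 29.0% in rUUO. In endothelial cells, where Ly6c1 exceeded 1000 FPKM in every sample, the share was 0.172 to 0.62%. Ly6c1 itself had 10.4 ± 4.92 FPKM (SD, n = 4) in sham and 15.8 ± 5.9 FPKM (SD, n = 4) in UUO macrophages. Every macrophage sample thus had a higher share than every endothelial sample, although the FPKM values of Ly6c2 overlapped between UUO macrophages and endothelial cells.

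Chil3, the chitinase-like protein YM1 of monocytes and activated macrophages (chr3:106147554-106167564), had 0, 0.42, 2.24 and 0.1 FPKM in sham. It had 6.96, 2.37, 2.74 and 2.55 FPKM in UUO and 0.27, 0.37 and 0.86 FPKM in rUUO, so that no UUO sample overlapped either other group. The lowest UUO sample, at 2.37 FPKM, was close to the highest sham sample, at 2.24 FPKM. The UUO difference from sham was 1.53 (SE 0.44, limma adjusted p = 0.0639) and that of rUUO from UUO was -1.55 (SE 0.48, limma adjusted p = 0.439). The UUO difference passed under 2 of 20 alternatives, quantile normalization and without sham replicate 3. Its copy Chil4 was listed at 0 in all 11 macrophage samples.

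The remaining resident markers varied widely within UUO. Lyve1, a hyaluronan receptor of perivascular macrophages and lymphatic endothelium (chr7:110850607-110863239), had 2.55, 4.42, 6.47 and 1.86 FPKM in sham, 20.5, 9.25, 0.22 and 18.8 FPKM in UUO and 1.41, 0.12 and 0.11 FPKM in rUUO. All 3 rUUO samples lay below all sham samples, and in UUO 3 samples lay above sham and replicate 3 below it. Folr2, a folate receptor of resident macrophages (chr7:101839988-101857194), had 3.03, 6.09, 18.5 and 2.41 FPKM in sham, 35.1, 15.8, 3.18 and 62.9 FPKM in UUO and 10.7, 1.57 and 5.95 FPKM in rUUO.

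Cd163, the haemoglobin scavenger receptor (chr6:124304656-124330527), had 3.2, 0.57, 4.82 and 2.98 FPKM in sham, 9.59, 4.71, 0.5 and 10.6 FPKM in UUO and 2.23, 1.01 and 3.57 FPKM in rUUO. Timd4, the phosphatidylserine receptor TIM-4 of long-lived resident cells (chr11:46810800-46844332), had 0.25, 1.38, 0.5 and 0.83 FPKM in sham, 0.18, 2.73, 0.04 and 1.73 FPKM in UUO and 0.51, 0.07 and 0.43 FPKM in rUUO, and its mean was under the 1 FPKM needed for the test. UUO replicate 3 was the lowest of the 4 UUO samples for each of Timd4, Lyve1, Folr2, Cd163 and Mrc1, and it was the highest for Ly6c2.

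None of Lyve1, Folr2 and Cd163 passed the test after UUO. Their log2 differences from sham were 0.92 (SE 0.73), 1.60 (SE 0.76) and 0.70 (SE 0.60), with limma adjusted p-values of 0.528, 0.261 and 0.571. Lyve1 gave the largest difference of any member between rUUO and UUO, -2.57 (SE 0.79, limma adjusted p = 0.439), and without UUO replicate 3 it was -3.5 (adjusted p = 0.0228). Lyve1 also passed in UUO against sham without that replicate, at 1.86 (adjusted p = 0.0395). UUO replicate 3 had 251 FPKM of summed neutrophil markers and 73.9 FPKM of lymphocyte markers, the highest of the macrophage samples, and their part in its resident marker levels was not tested.

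Adgre1 (chr17:57358686-57483529), an adhesion receptor of mature macrophages, did not pass in any comparison, with a log2 difference of UUO from sham of -0.09 (SE 0.16, limma adjusted p = 0.814). It had 186, 186, 247 and 195 FPKM in sham, 191, 152, 215 and 208 FPKM in UUO and 198, 214 and 217 FPKM in rUUO, with groups that overlapped throughout. Csf1r (chr18:61105572-61132149), the receptor for CSF1 and IL-34, had 604, 530.1, 691 and 601 FPKM in sham, 418, 372, 525 and 482 FPKM in UUO and 417, 425 and 389 FPKM in rUUO. All UUO and all rUUO samples were below all sham samples, although the highest UUO sample was close to the lowest sham sample. The log2 differences of Csf1r from sham were -0.44 (SE 0.15, limma adjusted p = 0.12) in UUO, which passed only under quantile normalization of 21 alternatives, and -0.56 (SE 0.16, limma adjusted p = 0.0857) in rUUO, which passed under 4 of 21.

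**Figure D1:**
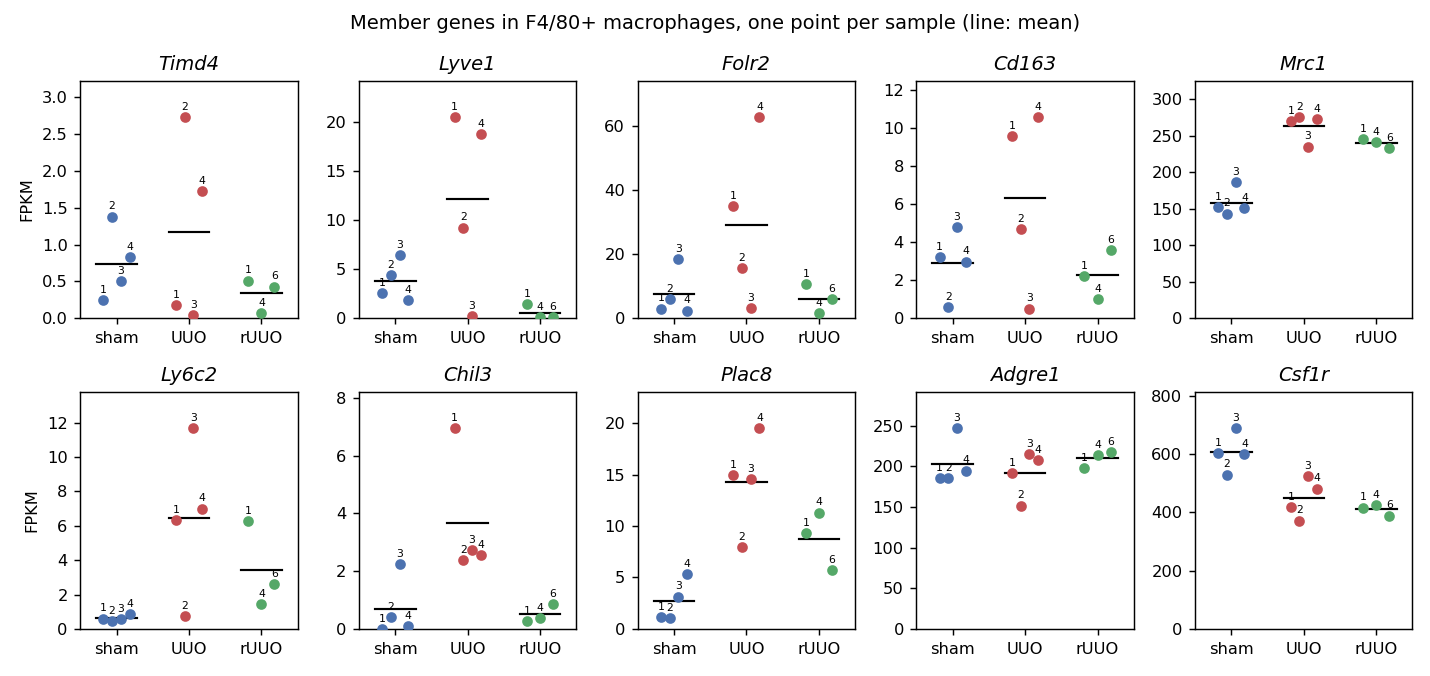
FPKM of the 10 genes in each macrophage sample by surgery, with the replicate number beside each point and a line at the group mean; the vertical axes start at 0 and differ between panels. Mrc1 and Plac8 in UUO lay above sham in every sample, whereas UUO replicate 3 lay at 0.22 FPKM for Lyve1 beside 20.5 FPKM in replicate 1.

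Across the 9 members tested, 2 passed after UUO, both higher, where 4.99% of 13332 genes passed, 2.86% higher and 2.13% lower. In rUUO against sham 1 of 9 passed, where 3.44% of genes did, 1.89% higher and 1.55% lower. In rUUO against UUO 0 of 9 members passed limma, as did 0% of all genes (up to 35 genes under the alternatives), although 945 genes had an unadjusted p under 0.05, Chil3, Lyve1 and Folr2 among them. The median log2 difference of the 9 members was 0.92 in UUO against sham, -0.63 in rUUO against UUO and -0.02 in rUUO against sham, beside -0.03, -0.02 and -0.03 over all genes tested.

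The groups did not overlap for 4 of the 10 members in UUO against sham (Mrc1, Plac8, Chil3 and Csf1r), where 11.7% of genes tested showed no overlap. The count was 1 of 10 in rUUO against UUO (Chil3), beside 7.13% of genes, and 5 of 10 in rUUO against sham (Mrc1, Plac8, Ly6c2, Lyve1 and Csf1r), beside 18% of genes. The exact two-sided permutation p was 0.0286 for each of the 4 members without overlap after UUO, the smallest that 4 samples against 4 allow. With 3 rUUO samples the smallest possible exact p is 0.0571, so no single member could reach 0.05 in the comparisons with rUUO. The series' design gives 4 mice per group, but no label says that a replicate number names the same mouse in each population, and p-values measure the spread between these samples.

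**Figure D2:**
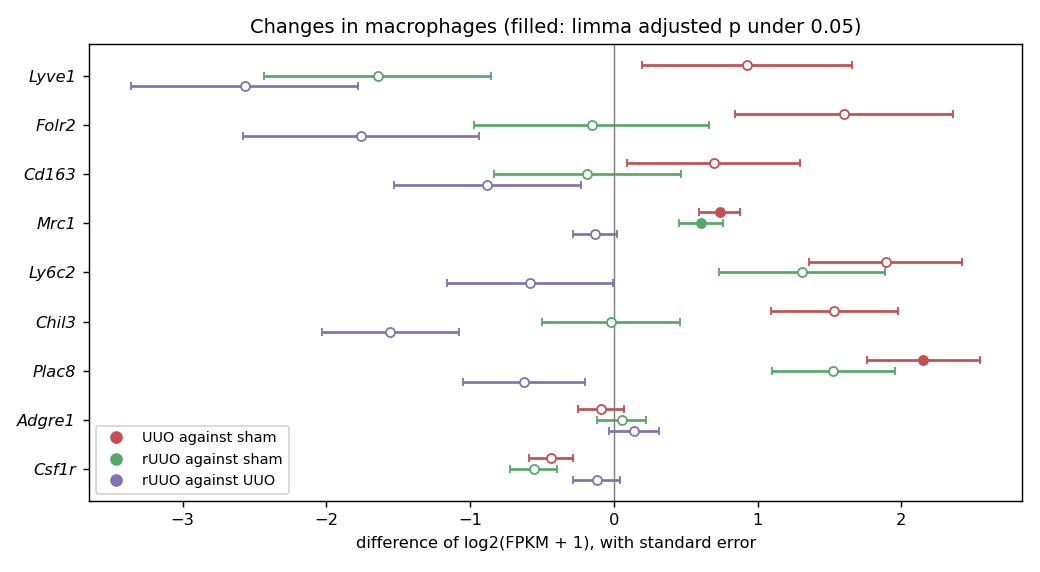
Difference of log2(FPKM + 1) between surgeries in macrophages for the 9 members tested, with the standard error of the limma fit; filled points had an adjusted p under 0.05. Plac8 at 2.15 and Mrc1 at 0.74 were filled for UUO against sham, Mrc1 at 0.61 was filled for rUUO against sham, and none was filled for rUUO against UUO.

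Of 19 other tissue-resident macrophage genes tested, 4 rose and 1 fell after UUO. Beside this list and those below, 2.86% of all genes tested rose and 2.13% fell in UUO against sham. In rUUO against sham 1.89% rose and 1.55% fell. F13a1, the coagulation factor XIII A chain, rose from 7.52 ± 5.56 to 38.6 ± 21.9 FPKM (SD, n = 4 each). Mertk, an efferocytosis receptor, rose from 5.36 ± 0.676 to 15.2 ± 2.46 FPKM, and Igf1, a growth factor, from 57.8 ± 10.1 to 114 ± 14.6 FPKM. Cd81, a tetraspanin, fell from 1092 ± 90.8 to 505 ± 93.3 FPKM. Their limma adjusted p-values were 0.0179, 0.00278, 0.0089 and 0.00119. In rUUO against sham 2 of the 19 rose (Mertk, log2 difference 1.74, and Igf1, 1.26) and Cd81 fell by 0.86 on the log2 scale. The genes that passed did not include the complement genes C1qa, C1qb and C1qc or the fractalkine receptor Cx3cr1, which had 242 ± 35.5 FPKM (SD, n = 4) in sham and 216 ± 42.6 FPKM (SD, n = 4) in UUO.

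Among 22 other monocyte genes, 7 rose and 2 fell after UUO, beside 2.86% and 2.13% of all genes tested. The largest rises were those of Arg1, arginase 1 of wound macrophages, Itgam, the integrin CD11b, and Nr4a1, a nuclear receptor needed by patrolling monocytes. Arg1 went from 3.32 ± 3.41 to 29.5 ± 33.6 FPKM, with 79.8 FPKM in UUO replicate 1. Itgam went from 76.2 ± 12.4 to 320.4 ± 95.7 FPKM and Nr4a1 from 7.19 ± 0.777 to 26.1 ± 5.3 FPKM (SD, n = 4 each). Spn, the sialophorin CD43, and Cybb, a subunit of the NADPH oxidase, fell by 1.14 and 0.63 on the log2 scale. Of the same 22 genes 5 rose and 2 fell in rUUO against sham, led by Nr4a1 (1.86), Itgam (1.76) and S100a6 (1.46), a calcium-binding protein, with Spn at -0.79 and Cybb at -0.62. None of the 22 passed in rUUO against UUO.

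The pathway of the CSF1 receptor and of monocyte recruitment held 15 genes tested, of which 5 rose and 1 fell after UUO. Of all genes tested 2.86% rose and 2.13% fell. Ccl7 and Ccl2, chemokines that attract CCR2-bearing monocytes, rose from 5.96 ± 3.1 to 63.9 ± 16.7 FPKM and from 18.6 ± 7.78 to 124 ± 19.9 FPKM (SD, n = 4 each), with limma adjusted p-values of 0.000199 and 3.87e-05. Klf4, a transcription factor of monocyte differentiation, rose by 1.19 on the log2 scale, and Cd74, the invariant chain that also binds MIF, fell by 0.75 on the log2 scale. In rUUO against sham 5 rose, led by Ccl7 (2.73), Ccl2 (2.14) and Cebpb (1.79), a C/EBP factor of myeloid cells, and 0 fell. No gene of the pathway passed in rUUO against UUO.

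Markers of other cells moved with surgery in the macrophage samples. The summed level of 8 proximal tubule markers was 98.5 to 129.97 FPKM in sham and 21.1 to 36.4 FPKM in UUO. For rUUO it was 18.4 to 21.6 FPKM. After UUO 5 of 7 tested fell, Slc34a1 by 2.4 on the log2 scale. The same sum was also lower after obstruction within the sorted PT population. There it was 2164 to 2826 FPKM in sham, 686 to 1107 FPKM in UUO and 1373 to 1586 FPKM in rUUO. Whether fewer tubule cells or less marker RNA per tubule cell lowered the sum in the macrophage samples was not tested. The sum of 10 neutrophil markers was 26.5 to 78.9 FPKM in sham, 53.3 to 251 FPKM in UUO and 101 to 129.9 FPKM in rUUO. Most of it in every sample was Csf3r, which also belongs to the pathway list above and did not pass. Csf3r had 22.9 to 75.4 FPKM in sham, 39.2 to 142 FPKM in UUO and 93.6 to 109 FPKM in rUUO. Ngp, another of the 10, was listed at 0 in sham and reached 12.9 FPKM in UUO replicate 3. S100a8 and S100a9 rose after UUO. Ly6g, the marker that defines mouse neutrophils, was listed at 0 in all sham and rUUO samples and did not exceed 0.58 FPKM in UUO. That value was in UUO replicate 3, which also had the highest S100a9 (63.2 FPKM), Cxcr2 (2.74 FPKM) and Camp (1.57 FPKM). S100a8, Mmp8 and Retnlg were not highest there. The share of neutrophils was not tested.

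The sum of 10 lymphocyte markers was 1.91 to 2.43 FPKM in sham, 4.63 to 73.9 FPKM in UUO and 9.03 to 36.1 FPKM in rUUO, with Cd3e and Cd79a passing the test after UUO and 0 of 7 tested passing without UUO replicate 3. Of 8 dendritic cell markers tested 2 fell after UUO, Clec9a by 1.70 and Siglech by 1.44 on the log2 scale, while the sum of all 10 was 43.9 to 79.1 FPKM. Of 6 cell cycle genes Stmn1 and Mki67 rose, and the sum went from 42.2 to 56.9 FPKM in sham to 109 to 137 FPKM in UUO. None of the endothelial, stromal, eosinophil or lymphatic endothelial markers tested passed. Of 6 eosinophil markers 1 was tested, with a log2 difference from sham of -2.16 in UUO and -2.85 in rUUO. The sum of 8 stromal markers was 15.4 to 65.4 FPKM in sham, 53.2 to 108 FPKM in UUO and 45.8 to 88.5 FPKM in rUUO. The sum of 6 lymphatic endothelial markers, of which 1 was tested, was 1.58 to 8.67 FPKM over all macrophage samples. Mmrn1, which marks lymphatic endothelium, was listed at 0 in every sample of all 4 populations, endothelial cells included, so its absence here carries no information. The part of these cells in the levels of Mrc1, Plac8, Ly6c2 and Lyve1 was not tested.

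**Figure D3:**
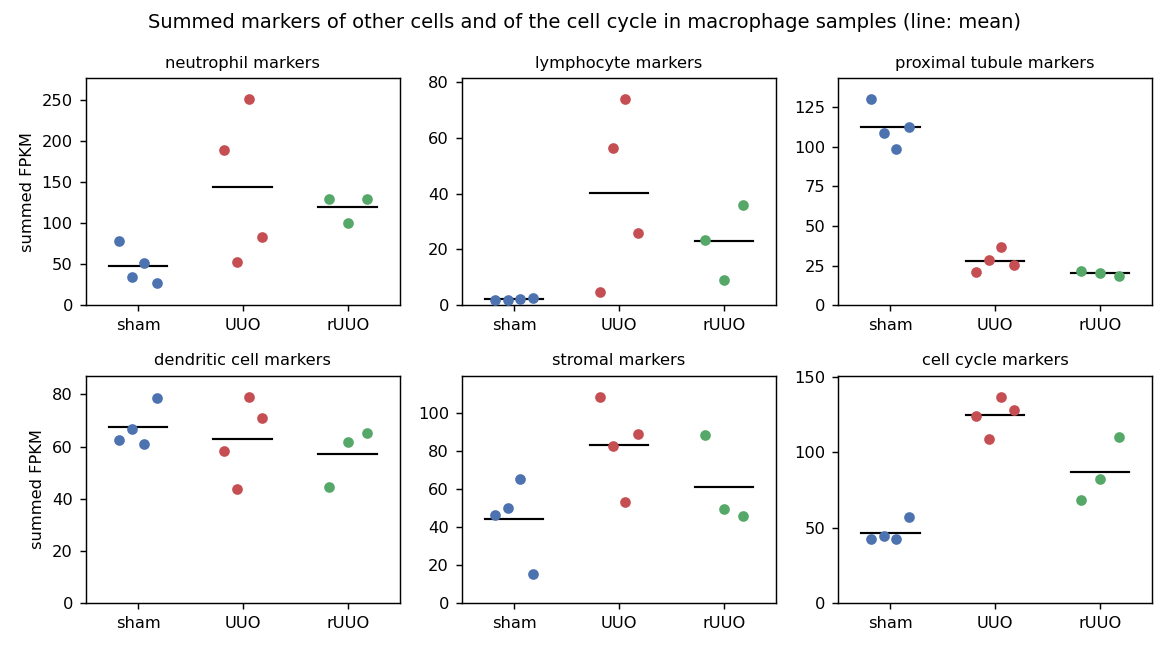
Summed FPKM of marker lists of other cell types and of the cell cycle in each macrophage sample by surgery, with a line at the mean; axes start at 0 and differ between panels. Proximal tubule markers lay at 98.5 FPKM or more in sham and at 36.4 FPKM or less in UUO and rUUO, and lymphocyte markers reached 73.9 FPKM in UUO beside 2.43 FPKM at most in sham.

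Over the 12 groups of population and surgery, 7 of the 10 members had their highest mean in a macrophage group, and 9 did under quantile normalization. Adgre1 had 152 to 247 FPKM in macrophages and did not exceed 1.54 FPKM elsewhere, which the sort on F4/80 set. Csf1r came next, with macrophage sham above macrophage UUO without overlap, UUO and rUUO overlapping, and stromal sham next at 10.2 ± 2.64 FPKM (SD, n = 4). Mrc1 followed the order macrophage UUO, rUUO, sham and then stromal sham, of which the first pair overlapped. Timd4 was listed at 0 or did not exceed 0.03 FPKM outside macrophages, and Cd163 did not exceed 0.27 FPKM there. Folr2 and Chil3 were likewise highest in UUO macrophages.

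Plac8, Lyve1 and Ly6c2 were the exceptions. Plac8 was highest in stromal UUO, at 99.4 ± 26.9 FPKM (SD, n = 4), and endothelial cells exceeded macrophages under every surgery. Lyve1 in endothelial UUO, with 12.2, 2.11 and 23.2 FPKM, overlapped macrophage UUO. Ly6c2 in endothelial sham, with 3.68 to 9.43 FPKM, overlapped macrophage UUO. These endothelial values stood beside abundant Ly6c1 and are uncertain, since the transcripts share sequence.

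**Figure D4:**
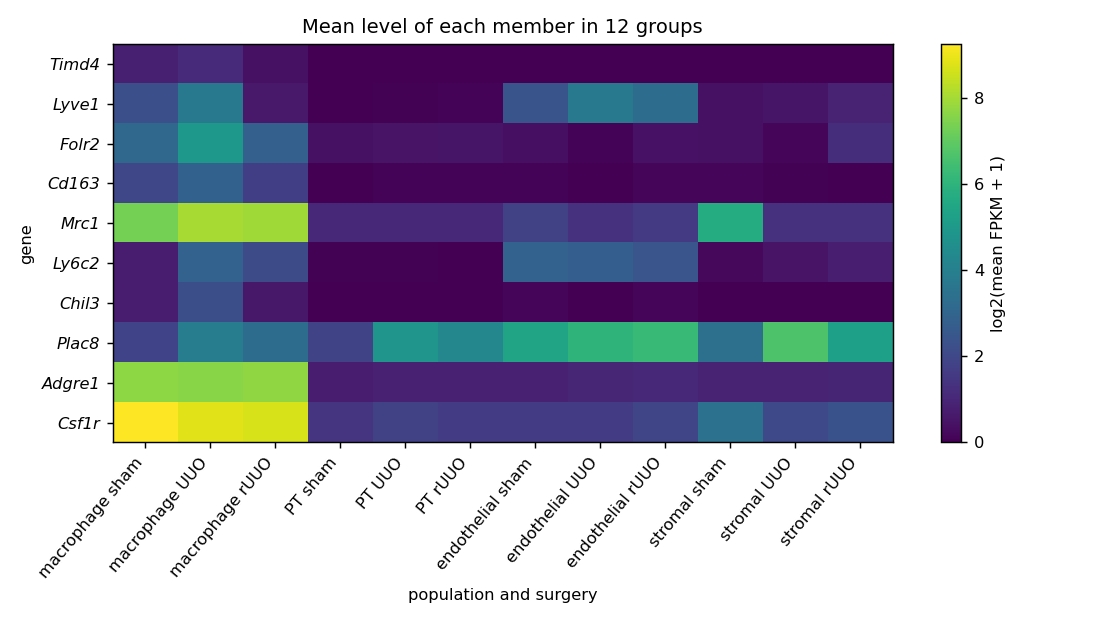
Colour map of log2(mean FPKM + 1) of the 10 genes (rows) in the 12 groups of population and surgery (columns). The macrophage columns were brightest for 7 genes, Plac8 was brightest in stromal UUO at a mean of 99.4 FPKM, and Mrc1 was visible in stromal sham at 51.7 FPKM.

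Stromal Mrc1 went the other way from macrophage Mrc1. It had 54.0, 52.2, 64.6 and 36.0 FPKM in stromal sham, 2.06, 1.66, 1.59 and 0.73 FPKM in stromal UUO and 1.23, 2.11, 0.68 and 1.9 FPKM in stromal rUUO. The sham samples stood far above all others, and UUO and rUUO overlapped. In the fit over all populations stromal Mrc1 fell by 4.39 on the log2 scale (SE 0.21, limma adjusted p = 1.37e-18) in UUO and by 4.42 (SE 0.21, limma adjusted p = 2.19e-18) in rUUO, where 28.8% and 19.1% of genes passed. The median change of all genes in this fit was -0.09 in stromal UUO, 0.11 in stromal rUUO, 0.39 in PT UUO and 0.16 in PT rUUO. The macrophage change exceeded the stromal change by 5.13 (SE 0.30, limma adjusted p = 2.1e-15) in UUO and by 5.03 (SE 0.31, limma adjusted p = 1.61e-14) in rUUO, among 16.2% and 9.53% of genes for which this difference passed.

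Stromal Csf1r moved in the same direction as stromal Mrc1. It had 10.99, 11.4, 6.27 and 12.02 FPKM in sham, 2.97, 4.38, 2.81 and 2.42 FPKM in UUO and 3.62, 4.61, 4.33 and 3.66 FPKM in rUUO, and fell by 1.42 (SE 0.21, limma adjusted p = 1.15e-06) and 1.11 (SE 0.21, limma adjusted p = 9.67e-05) on the log2 scale. Summed general macrophage markers were 71.4 to 90.7 FPKM in stromal sham, 56.2 to 146 FPKM in UUO and 73.6 to 126 FPKM in rUUO. In macrophages Lyz2 of this list rose by 0.92 and Cd14 fell by 1.11 on the log2 scale after UUO. The sum therefore does not measure macrophage content. Stromal Adgre1 was 0.83 ± 0.0497 FPKM (SD, n = 4) in sham and 0.867 ± 0.318 FPKM (SD, n = 4) in UUO. The part of macrophages in the stromal levels of Mrc1 and Csf1r was not tested. For Csf1r the macrophage change exceeded the stromal change by 0.98 (SE 0.30, limma adjusted p = 0.0186) in UUO.

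Plac8 also rose outside macrophages. In PT cells it had 5.31, 0.68 and 2.16 FPKM in sham, 28.9, 25.6, 30.4 and 25.4 FPKM in UUO and 21.4, 15.2 and 18.6 FPKM in rUUO, and passed in both comparisons, where 25.1% and 6.4% of genes did. In stromal cells it had 7.59, 4.83, 18.6 and 8.02 FPKM in sham, 137, 90.4, 97.0 and 73.3 FPKM in UUO and 26.9, 38.0, 43.7 and 35.8 FPKM in rUUO. No stromal rUUO sample overlapped either other stromal group. The log2 differences of UUO from sham were 3.14 (SE 0.37) in PT cells and 3.33 (SE 0.35) in stromal cells, with limma adjusted p-values of 1.97e-08 and 5.4e-10.

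In endothelial cells Plac8 had 36.0, 44.8, 34.5 and 50.7 FPKM in sham and 54.2, 71.0 and 64.1 FPKM in UUO. The log2 differences of 0.60 (SE 0.37) in UUO and 0.77 (SE 0.35) in rUUO did not pass, with limma adjusted p-values of 0.51 and 0.265, where 2.95% and 3.15% of genes passed. The Plac8 change in macrophages was not shown to differ from that in PT cells (-0.99, SE 0.51), endothelial cells (1.55, SE 0.51) or stromal cells (-1.18, SE 0.49) after UUO, with limma adjusted p-values of 0.197, 0.0992 and 0.0961. For all members the share of genes passing such a difference was 15.5% against PT cells and 2.31% against endothelial cells in UUO, and 4.08% and 2.48% in rUUO.

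The change of Ly6c2 after UUO was higher in macrophages than in PT cells, where no sham or UUO sample exceeded 0.13 FPKM. With PT cells at this floor, the difference from them restates the macrophage change, which did not pass in the macrophage fit (limma adjusted p = 0.0592). Stromal cells were low too, at 0.58 FPKM or less in sham and UUO. Endothelial Ly6c2 is uncertain beside abundant Ly6c1, and so is the difference from endothelial cells. The Ly6c2 differences from endothelial and stromal cells passed under fewer settings. The differences of its log2 change were 1.89 (SE 0.55) against PT cells, 2.08 (SE 0.55) against endothelial cells and 1.61 (SE 0.53) against stromal cells, with limma adjusted p-values of 0.0154, 0.032 and 0.0304. The comparisons share the same 8 macrophage samples. Against endothelial cells Mrc1 differed as well, by 1.22 (SE 0.31, limma adjusted p = 0.0242), with endothelial values of 2.11 to 3.08 FPKM in sham and 1.04 to 2.1 FPKM in UUO. The Ly6c2 difference from PT cells passed under all 17 alternatives, those from endothelial and stromal cells under 10 of 16 each, with adjusted p-values of up to 0.0835 and 0.208, and the Mrc1 difference from endothelial cells under 12 of 16, with an adjusted p of up to 0.102. Macrophage sham replicate 2 and UUO replicates 1, 3 and 4 each ended both of these Ly6c2 calls when left out, sham replicate 1 ended the endothelial call, and sham replicate 2 ended the Mrc1 call.

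**Figure D5:**
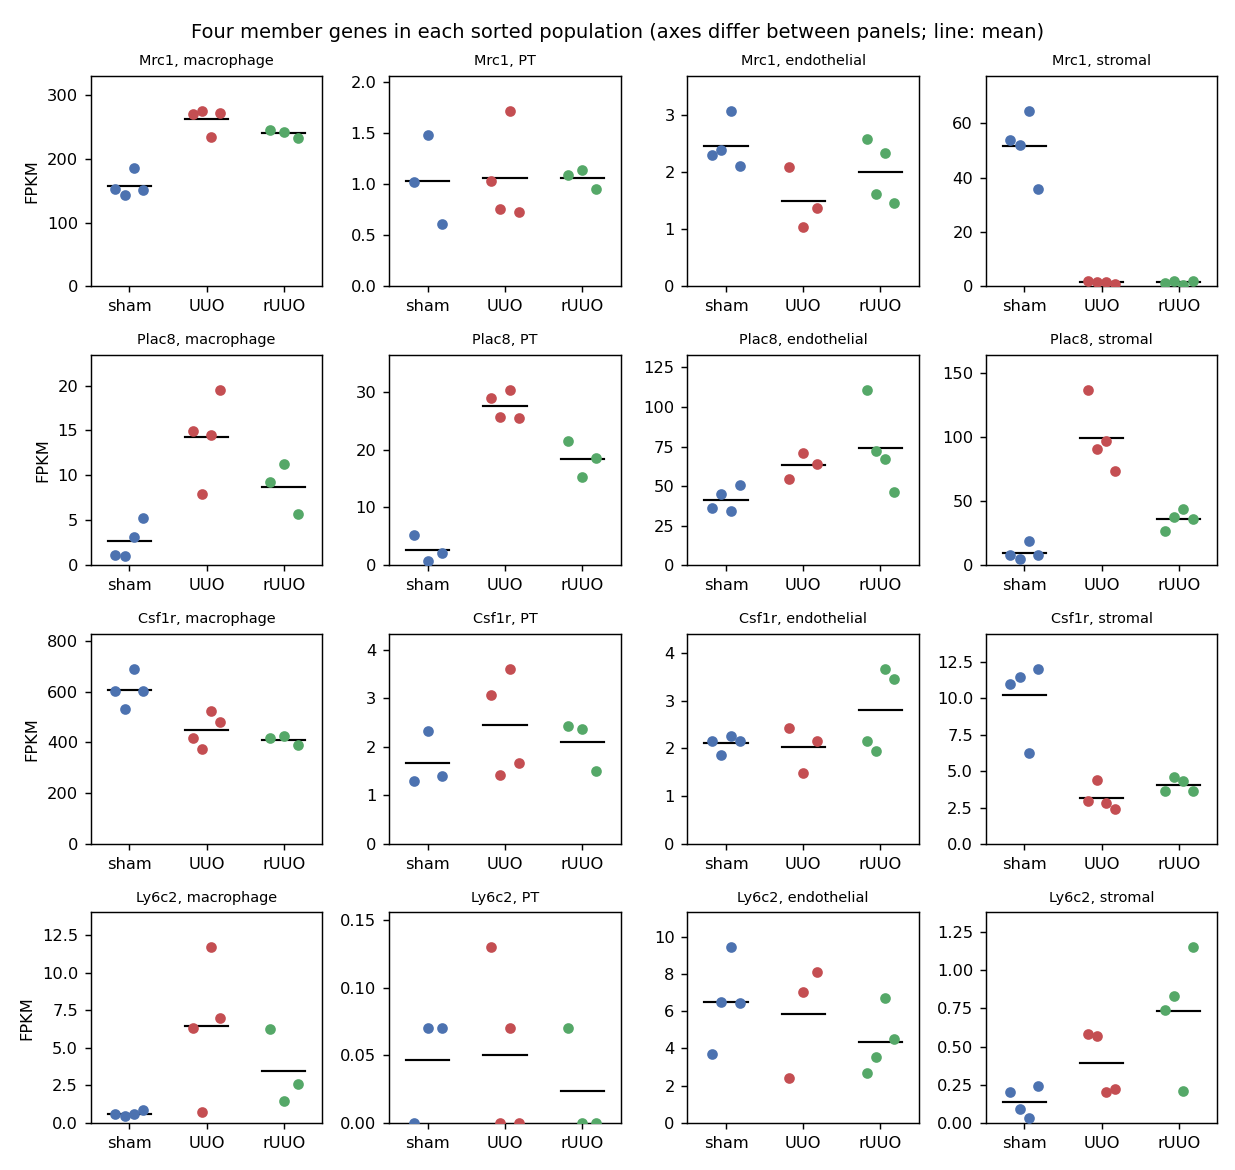
FPKM of Mrc1, Plac8, Csf1r and Ly6c2 (rows) in each sorted population (columns) by surgery, with a point per sample and a line at the mean; axes start at 0 and differ between panels. Mrc1 was higher in UUO macrophages and lower in UUO stromal cells than in sham, at 0.73 to 2.06 FPKM against 36.0 to 64.6 FPKM in stromal cells, while Plac8 was higher in UUO than in sham in both.

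The ligands of the CSF1 receptor had their highest levels outside macrophages. Csf1 had 38.1 to 71.3 FPKM in endothelial sham and 14.7 to 23.0 FPKM in stromal sham, and 1.12 to 6.9 FPKM in all macrophage samples. In endothelial cells Csf1 had 59.2 ± 14.8 FPKM (SD, n = 4) in sham, 40.3 ± 2.18 FPKM (SD, n = 3) in UUO and 41.2 ± 6.07 FPKM (SD, n = 4) in rUUO, and neither difference from sham passed (log2 -0.51 and -0.49, limma adjusted p = 0.602 and 0.524). After UUO the log2 level of Csf1 rose by 1.35 in PT (SE 0.37, limma adjusted p = 0.0052) and by 1.35 in stromal cells (SE 0.34, limma adjusted p = 0.00213), where stromal UUO held 58.8, 59.8, 23.3 and 98.1 FPKM. Il34 had 1.36, 0.19 and 0.77 FPKM in PT sham, 21.03, 14.1, 15.6 and 15.8 FPKM in PT UUO and 22.04, 9.94 and 5.81 FPKM in PT rUUO. In PT cells Il34 rose by 3.35 in UUO and by 2.81 in rUUO, with limma adjusted p-values of 3.86e-05 and 0.00312. Its highest level was in stromal rUUO, at 63.98, 52.4, 31.4 and 43.8 FPKM against 11.6 to 22.7 FPKM in stromal sham, a log2 difference of 1.42 that did not pass (SE 0.55, limma adjusted p = 0.0682). In stromal UUO Il34 had 3, 9.44, 33.75 and 6.8 FPKM, with a mean of 13.2 FPKM beside 17.2 FPKM in stromal sham. Ccl2 passed, higher in UUO and in rUUO than in sham, in all 4 populations, and its highest level was in macrophages.

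The genes whose levels followed a member most closely over the 11 macrophage samples were sought among 8011 genes whose mean reached 5 FPKM. Pearson's r of log2(FPKM + 1) is given as a description, since the points share 3 surgeries. Mrc1 was nearest to Pltp (r = 0.99), a phospholipid transfer protein, Ccl2 (0.979) and Gm21188 (0.975). Plac8 was nearest to Selenop (0.958), Lgmn (0.956), a lysosomal protease, and Clta (0.951). Folr2 was nearest to F13a1 (0.895), Ap2m1 (0.886) and Cbr2 (0.883), and Lyve1 to Msantd2 (0.89), Folr2 itself (0.854) and Kif23 (0.85). Cd163 was nearest to Kif23 (0.91), Fcna (0.849) and Sass6 (0.845).

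The monocyte and shared markers had other neighbours. Ly6c2 was nearest to Rab1a (0.924), Cbx3 (0.914) and Smap2 (0.914). Csf1r was nearest to Slc39a13 (0.966), Wasf2 (0.964) and Vsir (0.951), and Adgre1 to Brap (0.877), Rragc (0.875) and Angel2 (0.873). Among the members themselves r was 0.854 for Lyve1 with Folr2, 0.75 for Lyve1 with Cd163, 0.797 for Folr2 with Cd163, 0.864 for Mrc1 with Plac8 and 0.789 for Ly6c2 with Plac8, whereas Mrc1 with Lyve1 gave 0.19 and Ly6c2 with Lyve1 gave -0.00. Lyve1, Folr2 and Cd163 were the lowest of UUO together in replicate 3.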

How the data were processed

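The authors deposited FPKM values rounded to 2 decimals for 53465 genes, from Illumina HiSeq reads of RNA amplified by the Ovation RNA-Seq System V2. The submitters' processing notes name FastQC, Bowtie2, RSEM, DESeq2 and mm10, with no role or version, and the table holds no counts. Of 46 value columns 44 were used. The other 2 share a single sample's name and were left out, and PT sham replicate 3 was not analysed here, since its name matches none of the columns. The title of PT UUO replicate 2 names sham and UUO, and the sample was grouped by its treatment label. The 10 members and all gene lists were chosen with earlier results of these data known.

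Surgeries were compared in macrophages by limma 3.58.1 in R 4.3.3. Linear models were fitted to log2(FPKM + 1), a scale that understates changes of low genes, and eBayes was run with trend. The 13332 genes whose mean reached 1 FPKM were tested, all 11 samples shared 1 estimate of the spread, and p-values adjusted by Benjamini-Hochberg were called under 0.05. Changes in other populations, and the macrophage change minus another population's change, came from 1 fit of all 44 samples (14332 genes). For each member an exact permutation test, two-sided, was run in scipy 1.17.1. The fit was tested on simulated data. For symbols with 2 gene IDs the more abundant was used. Genes named are the members, their copies Ly6c1, Chil4 and Folr1, the 3 largest rises and falls of each list among genes past the threshold, the ligands Csf1, Il34 and Ccl2, and the 3 genes nearest each member. Those nearest Chil3 are not reported here. Further marker genes, Cx3cr1, C1qa and Lyz2 among them, were chosen after their values were seen.

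Alternatives were a pseudocount of 0.1, no filter, TPM, rescaling without mitochondrial genes, quantile normalization, 1 fit for all populations, only the groups compared, no intensity trend, a replicate block, each sample left out in turn and, for the differences between populations, the mouse as a random effect, which takes samples of the same surgery and number for the same mouse. Sample weights and a fit without PT UUO replicate 2 were added after seeing the data.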

Additional observations from a re-analysis of the deposited data

Results flagged for a closer look

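Among 49 groups of 4 samples in which a member reached 1 FPKM, 5 had a sample set apart from the other 3 by Dixon's ratio of gap to range on the log2(FPKM + 1) scale, above the critical value for 4 samples. Chance flags about 1 in 20 groups. They were the highest sham macrophage sample for Adgre1 (ratio 0.836, replicate 3 at 247 FPKM), the lowest stromal sham sample for Csf1r (0.859, at 6.27 FPKM), the highest UUO macrophage sample for Chil3 (0.879, replicate 1 at 6.96 FPKM), the highest endothelial rUUO sample for Folr2 (ratio 1, at 1.45 FPKM beside 3 samples listed at 0) and the lowest UUO macrophage sample for Mrc1 (ratio 0.88, replicate 3 at 235 FPKM). Their cause was not tested.

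Of 48 differences of change tested for 8 members in limma on all populations, 7 passed the threshold. Over all genes the share passing in UUO was 15.5% against PT, 2.31% against endothelial and 16.2% against stromal cells. In rUUO these shares were 4.08%, 2.48% and 9.53%, so the pooled count is not a result about the members. The change of Ly6c2 after UUO was higher in macrophages than in PT cells by 1.89, than in endothelial cells by 2.08 and than in stromal cells by 1.61 on the log2 scale. Ly6c2 did not exceed 0.13 FPKM in PT cells, so the difference from them restates the macrophage change. Its endothelial values are uncertain beside abundant Ly6c1. The change of Mrc1 after UUO was higher in macrophages than in endothelial cells by 1.22 and than in stromal cells by 5.13, and after rUUO it was higher than in stromal cells by 5.03. The change of Csf1r after UUO was higher in macrophages than in stromal cells by 0.98, with both below sham. Against endothelial and stromal cells the Ly6c2 differences passed under 10 of 16 alternatives each and the Mrc1 difference from endothelial cells under 12, while the other differences passed under all. What sets the populations apart was not tested.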

How the results depend on the processing

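Of the members, Plac8 passed after UUO under all 21 alternatives and Mrc1 under 19, and the list counts of the report were also run without UUO replicates 2 and 3. Without replicate 2, 6 of the other resident genes rose and 1 fell, 8 monocyte genes rose and 2 fell, and 5 pathway genes rose and 1 fell. Of all 13339 genes tested in that fit, 465 rose and 271 fell. Without replicate 3 the list counts were 5 and 1, 5 and 2, and 4 and 1. There 226 of 13323 genes rose and 216 fell. Over single member results, 883 alternative values kept their direction and side of the threshold, 26 gained and 31 lost a call, and 15 turned sign, none of them called.

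The count of genes called in UUO against sham, 665, was 364 with no filter, 1018 with all 4 populations in the fit, 359 with only the groups compared, 443 without the intensity trend and 272 to 736 with 1 sample left out (lowest without sham replicate 2, highest without UUO replicate 2). For rUUO against UUO, 0 genes became 1 with no filter and without the trend, 2 with TPM, with mitochondrial genes left out and with quantile normalization, 35 with all populations, 19 with sample weights and 0 to 15 with 1 sample left out (15 without UUO replicate 2). For rUUO against sham, 459 became 303 with no filter, 753 with all populations, 777 with sample weights and 207 to 653 with 1 sample left out. With a pseudocount of 0.1 the differences of change numbered 200 (331) against endothelial cells in UUO, and 152 (355) against endothelial and 849 (1366) against stromal cells in rUUO, and with 1 sample left out those against endothelial cells in rUUO ranged from 200 to 413. The cause was not tested. Without PT UUO replicate 2 the calls named for PT UUO stayed, and Csf1r passed for the macrophage change minus the PT change in UUO (-0.92, adjusted p = 0.0401).

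With the replicate block, 346 genes passed in UUO against sham and 115 in rUUO against sham, and the Mrc1 call in rUUO was lost (adjusted p = 0.287). Of 8 pairs of macrophage samples with the same number, 0 had a correlation of deviations over 0.1. No pairing by number was seen, though so few pairs cannot show that there is none.

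The sign turned for Csf1r in rUUO against UUO (0.019) and Adgre1 in rUUO against sham (-0.036) under quantile normalization. Chil3 in rUUO against sham was 0.48 with a pseudocount of 0.1, 0.012 with TPM, 0.042 with quantile normalization and 0.0093 with sample weights. With 1 sample left out, Adgre1 in UUO against sham ranged from -0.15 to 0.019, and in rUUO against sham Chil3 ranged from -0.22 to 0.35, Folr2 from -0.64 to 0.45 and Cd163 from -0.57 to 0.13. Low FPKM values and 3 rUUO samples limit what could be detected.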

Other observations

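Folr1, the folate receptor of tubular cells, had 2.73 to 8.27 FPKM in sham, 0.26 to 1.96 FPKM in UUO and 0.19 to 4.89 FPKM in rUUO macrophages, beside 91.6 to 109 FPKM in PT sham cells. Its log2 difference of -1.42 (SE 0.49) between UUO and sham did not pass limma in the macrophage fit (adjusted p = 0.117) and passed in the fit over all populations (adjusted p = 0.0355), and the proximal tubule markers of the same samples were lower in UUO too. Stromal Ly6c1 had 26.3 to 77.0 FPKM in sham and 149 to 376 FPKM in UUO, a rise of 2.03 on the log2 scale (SE 0.32, limma adjusted p = 3.78e-06), while stromal Ly6c2 in UUO did not exceed 0.58 FPKM.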
